A study of Homo sapiens with 72 samples.

Results

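Replication-dependent histone genes encode the linker histone H1 and the core histones H2A, H2B, H3 and H4 that package newly copied DNA. They were chosen by symbol alone from the 62266 genes of the deposited table: H1-1 to H1-6, and the genes named H2AC, H2BC, H3C or H4C with a number, pseudogenes left out. This gave 69 genes, of which 6 encode H1, 17 H2A, 18 H2B, 13 H3 and 15 H4. In the annotation used here (release 44, GRCh38) 55 of them lie on chromosome 6, 13 on chromosome 1 and 1 on chromosome 12. All 69 carry, shortly after the stop codon, the stem-loop known from this gene family. The same search also matched 7 other protein-coding genes, and the dependence of each member on replication was not tested.

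The RNA came from 3 human epithelial lines: Ect/E6E7 from the ectocervix (Ecto), End1/E6E7 from the endocervix (Endo) and VK2/E6E7 from the vagina (VK2). All 3 were immortalized with the papillomavirus genes E6 and E7, whose products act on the p53 and retinoblastoma proteins that restrain the cell cycle. Cells were left non-treated (NT) or were given 4 mM putrescine (PUT), 400 µM spermidine (SPD) or 400 µM spermine (SPM) 4 h ahead, and were then exposed for 24 h to live Gardnerella vaginalis (GV, 10000000 CFU per well) or left without bacteria (noGV). Each line has 8 groups of 3 libraries, 72 libraries in all, and whether the 3 came from different cultures is not stated. Errors and p-values therefore measure the spread between these libraries. Library totals ran from 20152143 to 42767996 counts. The epithelial markers were present in every line, with 9 of 9 at a mean CPM (reads per 1000000 counted) of at least 1, while fibroblast, leukocyte and endothelial markers reached that level for 0 to 2 genes of each list. A single library stood apart for these genes. In Ecto SPD+noGV the summed level of all 69 members was 480.4, 466 and 604 CPM in libraries 1, 2 and 3. Results that use this group are given with and without library 3.

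As background, histone mRNAs of this family end in a stem-loop in place of a poly(A) tail. The stem-loop-binding protein SLBP and the U7 small nuclear ribonucleoprotein direct the cut after the stem-loop, and the mRNAs build up in S phase and are degraded when DNA synthesis stops. A polyadenylated form of some of these genes is known from differentiated or non-dividing cells. The libraries were made from ribosome-depleted total RNA, which contains mRNAs with and without a tail, and a count combines every annotated transcript of a gene. In bulk RNA, a different number of cells in S phase and a different amount of histone mRNA per cell cannot be told apart.

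The stem-loops of the members that the results turn on are shown because they are a shared feature of the family and because they separate H4 from the other classes. Each line gives the DNA letters of the mRNA strand, with the 16-base stem-loop in capitals and 5 bases on either side.
H1-2: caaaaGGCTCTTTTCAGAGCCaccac
H2AC6: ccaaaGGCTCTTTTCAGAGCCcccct
H2BC12: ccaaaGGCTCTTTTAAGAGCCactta
H2BC18: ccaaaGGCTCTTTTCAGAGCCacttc
H2BC26: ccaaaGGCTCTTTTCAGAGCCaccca
H3C6: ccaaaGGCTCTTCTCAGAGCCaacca
H4C8: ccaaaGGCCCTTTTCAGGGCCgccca
H4C14: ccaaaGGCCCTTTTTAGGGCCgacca
The capitals lie at chr6:26055744-26055759 (minus strand) for H1-2, chr6:26124669-26124684 (plus) for H2AC6, chr6:27146366-27146381 (minus) for H2BC12, chr1:149811885-149811900 (minus) for H2BC18, chr1:228458538-228458553 (plus) for H2BC26, chr6:26225596-26225611 (plus) for H3C6, chr6:26285131-26285146 (minus) for H4C8 and chr1:149833032-149833047 (plus) for H4C14. The search took the pattern GGNNNTTNTNANNNCC with 6 paired bases in the stem, on the strand of the gene and within 150 bases after the stop codon. All 69 members held a match, against 76 of the 19924 protein-coding genes searched (0.381%). The 7 others were H2AX, H3-4 and H3-7, which are also histone genes, and APLP1, DLEU7, KMT2C and UQCRB. The H4 stem-loops shown are built on GGCCC and GGGCC, and the others on GGCTC and GAGCC.

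The coding sequences are so alike that counts of single members need care. The median identity of a member to its nearest relative was 89.4%, with 62.4% for the testis-expressed linker histone H1-6 as the lowest. The coding sequences were identical within 4 pairs, H2AC18 and H2AC19, H3C14 and H3C15, H4C11 and H4C12, and H4C14 and H4C15. H2AC19 had no count in any library, and H2AC18 then stands for the pair. H3C14 and H3C15 traded their counts from library to library: in Endo NT+GV, H3C14 had 0, 54 and 59 counts where H3C15 had 60, 0 and 0. For these pairs the sum is the more certain value. H2BC18 overlaps FCGR1A and H2BC4 overlaps HFE, each on the opposite strand, and H2AC7 shares exon sequence with a readthrough gene that also overlaps H3C4. On its own strand, H2AC6 shares exon sequence with another annotated gene, and H2AC17 and H3C12 do so with each other. Their single counts need the same care.

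Of the 69 members, 52 are annotated with a single transcript of 1 exon, and 16 have at least 1 spliced transcript besides a canonical transcript of 1 exon. The 16 are H2AC1, H2AC6, H2AC25, H2BC4, H2BC5, H2BC6, H2BC11, H2BC15, H2BC18, H2BC26, H3C6, H3C12, H4C8, H4C14, H4C15 and H4C16. A filter on low counts left 59 members to test in Ecto, 54 in Endo cells and 51 in VK2 cells, 51 of them in all 3 lines and 10 in none. Some members would have failed the filter without the libraries of 1 of the groups compared, in which they were high. Counts without these members are given for GV alone, PUT+GV, SPM+GV, the interaction of SPM and SPM+GV against SPD+GV. Other counts, such as most of those by class, those between lines and those by spliced transcript, keep them. No count of all members called moved by over 1.5 times when they were left out. The 10 tested in no line include H1-1, H2AC1 and H2BC1, of which the last 2 are known from the testis. All tests below are edgeR quasi-likelihood tests over all genes of the line with Benjamini-Hochberg adjustment. A member counts as higher or lower at an adjusted p under 0.05, and fold changes are log2 values ± SE from 3 libraries against 3. Members called in all 3 lines are listed without a share of all genes, which was not computed for such shared calls.

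Untreated Ecto cells held the most histone mRNA and untreated VK2 cells the least. The summed level of all members was 484 ± 16.9 CPM in Ecto, 196 ± 6.77 CPM in Endo cells and 124 ± 5.4 CPM in VK2 cells (mean ± SD, n = 3), and the 3 lines did not overlap. In a joint fit of all 72 libraries with 59 members tested, 39 were higher in Ecto than in Endo cells, where 31.9% of all genes were. Against VK2 cells 42 were higher in Ecto (31.8% of all genes) and 27 in Endo cells (29.3% of all genes). None was called in the other direction in these 3 comparisons, in which 32%, 32% and 30.4% of all genes were lower. The median log2 difference of the members was 1.27 for Ecto against Endo, 2.23 for Ecto against VK2 and 0.7 for Endo against VK2, where that of all genes was 0.012, 0.009 and 0.

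H2B and H2A made up most of this mRNA. In untreated Ecto cells H2B summed to 235 ± 7.65 CPM, H2A to 101 ± 4.71, H4 to 64.8 ± 1.27, H1 to 63.4 ± 4.13 and H3 to 19 ± 1.56 CPM. The most abundant member was H2BC12, a core H2B gene, at 133, 133 and 141 CPM in Ecto, 47.7, 49.5 and 51.7 in Endo cells and 40.2, 40.1 and 43.7 in VK2 cells, with no overlap between lines. H1-2, the most abundant linker histone gene here, was at 61.4, 54.4 and 59 CPM in Ecto, 30.6, 28.6 and 30.2 in Endo cells and 23.4, 22.4 and 23.9 in VK2 cells. Per kilobase of transcript the order in Ecto cells was H2BC12, H2AC6, H2BC5, H1-2 and H4C14, and H2BC12 was also first and H1-2 second in the other lines. A few genes set the class sums, and 55 of 69 members in Ecto, 60 in Endo cells and 63 in VK2 cells averaged under 5 CPM. The H3 genes were low throughout, with H3C10 at 6.68, 6.08 and 7.28 CPM in Ecto and H3C6 at 2.08, 2.34 and 2.21 CPM in VK2 cells.

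**Figure D1:**
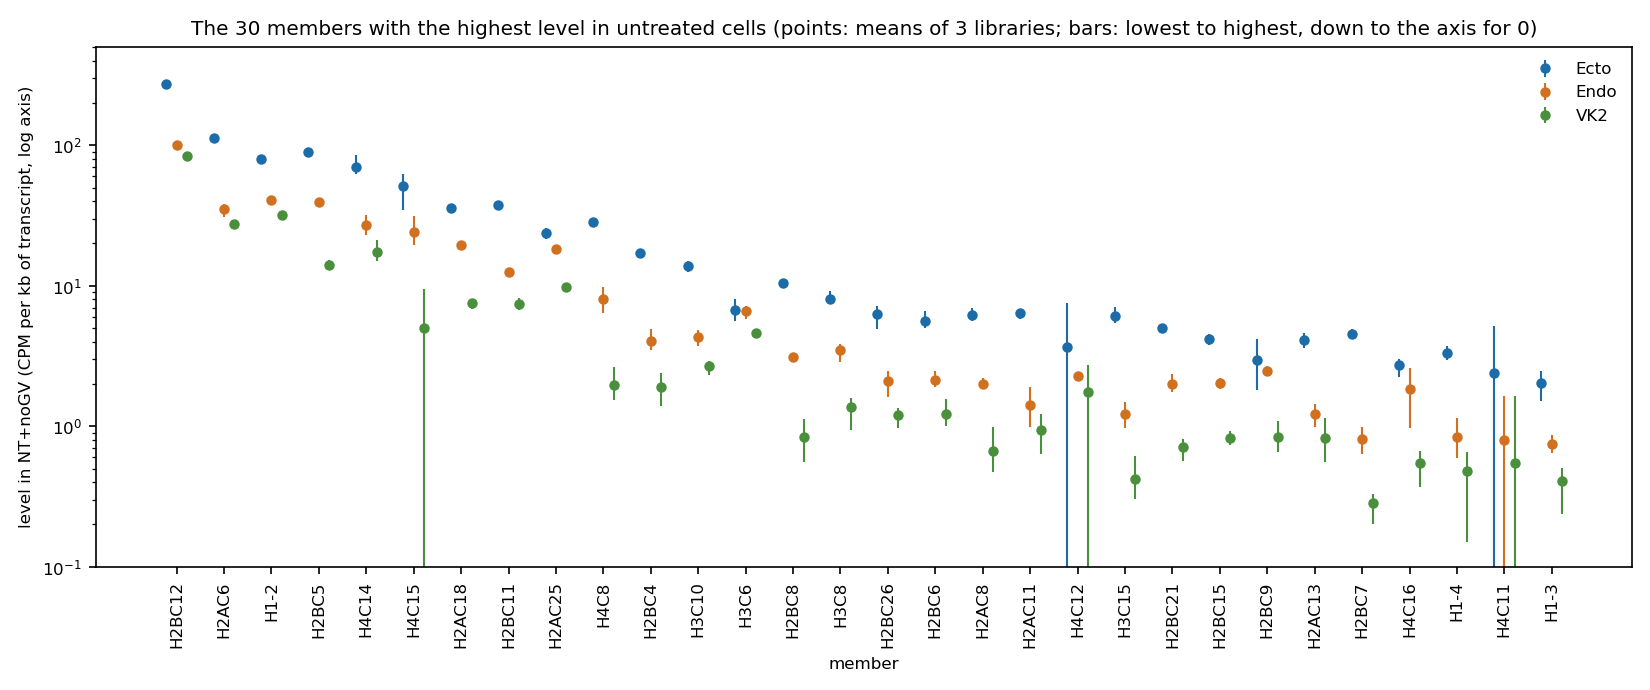
Level of the 30 most abundant members in NT+noGV cells, in CPM per kilobase of the canonical transcript on a log axis, for Ecto, Endo and VK2 cells (points: means of 3 libraries; bars: lowest to highest library). H2BC12 stands highest in all 3 lines, and 39 of 59 members tested were higher in Ecto than in Endo cells.

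The summed histone mRNA was higher with G. vaginalis alone in all 3 lines, with the largest difference in Endo cells. The sum over all members went from 196 ± 6.77 to 545 ± 13.1 CPM in Endo, from 484 ± 16.9 to 637 ± 22.2 in Ecto and from 124 ± 5.4 to 155 ± 4.63 in VK2 cells. In Endo cells 36 of 54 members were higher and 1 lower, where 25.7% and 28.7% of all genes were. Without H2AC14 and H3C14, which needed the NT+GV libraries to pass the low-count filter, 36 of 52 were higher. In Ecto cells 28 of 59 were higher and 1 lower (20.9% and 23.7% of all genes). In VK2 cells 10 of 51 were higher and 1 lower (13.9% and 12.5% of all genes), so that 19.6% of the members tested rose there. This share was nearer to that of all genes than in the other lines. The H3 sum did not rise in VK2 cells, with 4.97 ± 0.807 CPM with GV against 5.19 ± 0.688 CPM without, and the groups overlapped. The members' median log2 fold change was 1.31 in Endo, 0.54 in Ecto cells and 0.24 in VK2 cells.

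By class, the share that rose in Endo cells was largest for H2B, and that of H3 was near the share of all genes. With GV 14 of 16 H2B genes, 9 of 13 H2A, 4 of 5 H1, 6 of 10 H4 and 3 of 10 H3 genes rose there, and 1 H3 gene fell. Of all genes 25.7% were higher. H2BC12 went from 47.7, 49.5 and 51.7 CPM to 154, 161 and 156 CPM in Endo cells, a log2 fold change of 1.67 ± 0.04. In Ecto cells the same gene stood at 133, 133 and 141 CPM without and 132, 125 and 131 CPM with GV, and was not called (adjusted p = 0.43). The Ecto libraries with GV all lay slightly under those without, while the Endo libraries stood far apart. H1-2 rose in all 3 lines, by 0.47 ± 0.08 in Ecto, 1.34 ± 0.05 in Endo cells and 0.53 ± 0.08 in VK2 cells. The other linker histones H1-4 and H1-5 had the largest called rises of Ecto cells among members that averaged at least 1 CPM over the 24 libraries of the line, a limit that holds for every largest change named here. H1-4 went from 2.95, 2.57 and 2.31 to 7.76, 6.8 and 7.69 CPM (1.5 ± 0.13).

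H2BC17 rose from 0.299, 0.234 and 0.29 to 1.68, 1.87 and 1.85 CPM in Endo cells, with no overlap of the libraries (2.71 ± 0.22). H2AC7 had a larger fitted change there, from 0, 0.1 and 0 to 3.16, 1.47 and 1.98 CPM, but 2 of its 3 control libraries held no count. In VK2 cells the largest called rises were those of H2AC8 (1.5 ± 0.3) and H2AC18, which went from 3.63, 4.22 and 4.2 to 10.7, 10.1 and 9.56 CPM (1.35 ± 0.1). The 8 members that rose in all 3 lines were H1-2, H1-5, H2AC8, H2AC18, H2BC5, H2BC21, H3C10 and H4C8. The calls of H2BC5 in Ecto, H3C10 in Ecto and VK2 and H4C8 in VK2 cells were lost when 1 of the replicates was left out. Not all of the 8 were checked in this way in every line. Few members fell. H3C6 fell in Endo cells, from 3.28, 2.8 and 3.45 to 2.18, 2.05 and 2.73 CPM (-0.45 ± 0.14), and in VK2 cells, from 2.08, 2.34 and 2.21 to 1.07, 1.53 and 1.65 CPM (-0.62 ± 0.16). In Ecto cells H2BC7 was the only member that fell (-0.43 ± 0.17). Each of these falls lost its call when 1 of the replicates was left out.

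The lines differed in this response by a test of the difference itself. The effect of GV was smaller in Ecto than in Endo cells for 24 of 59 members and larger for 1, where 14.5% and 13.5% of all genes were called. It was larger in Endo than in VK2 cells for 23 members and smaller for 0 (11.3% and 14.4% of all genes). Between Ecto and VK2 cells it was larger in Ecto for 6 and smaller for 2 members (11.9% and 15.6% of all genes). For H2BC12 the effect in Ecto minus that in Endo cells was -1.73 ± 0.09 on the log2 scale.

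**Figure D2:**
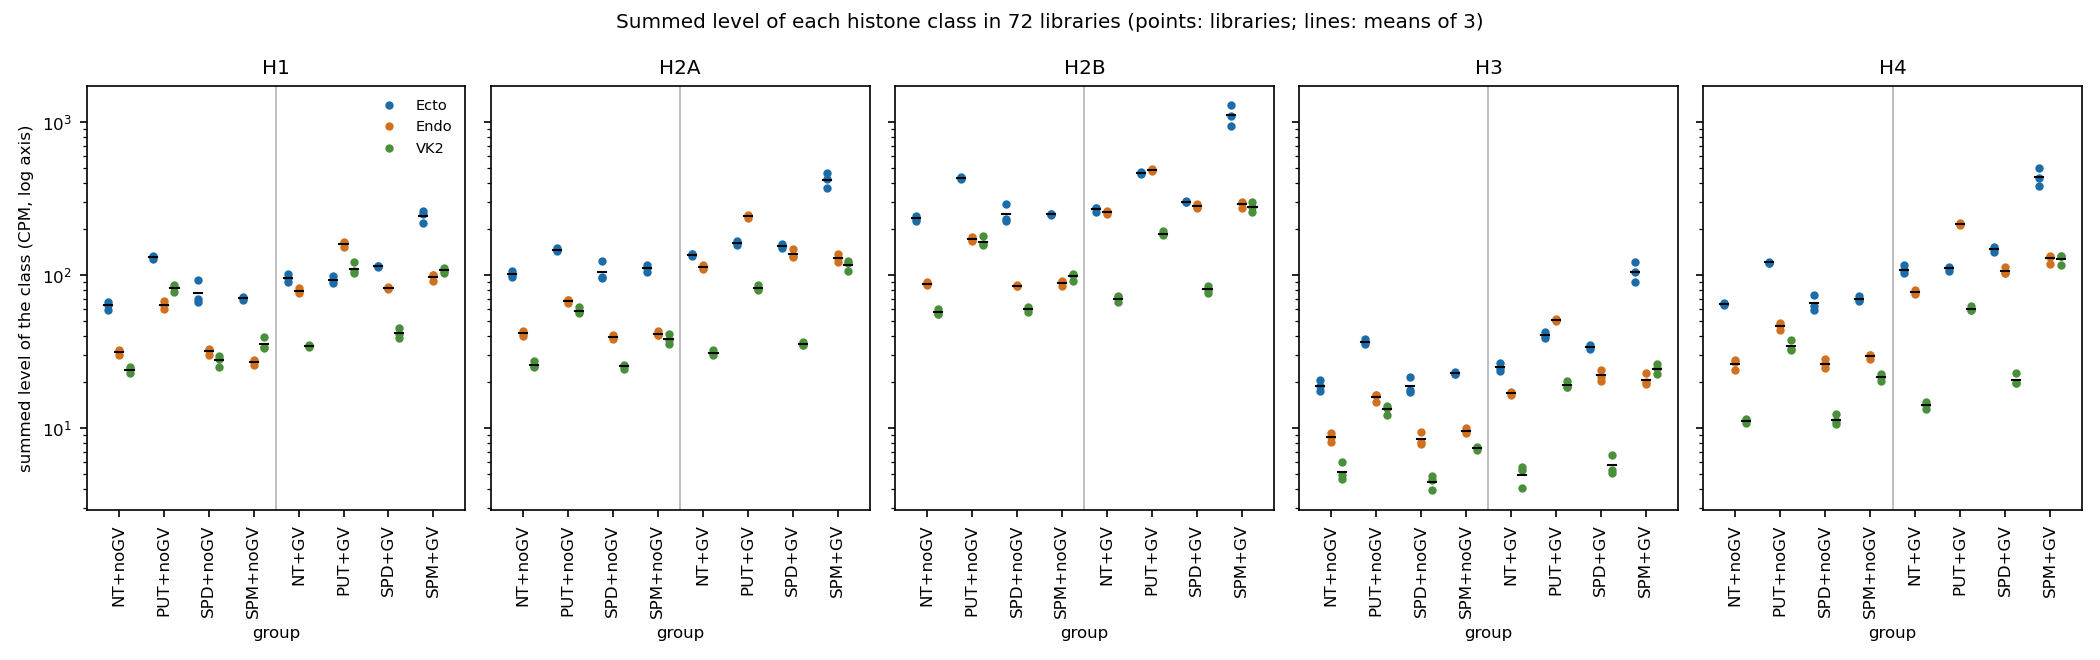
Summed level of each histone class in CPM on a log axis, in the 8 groups of each line (points: libraries; lines: means of 3). The SPM+GV libraries stand above the NT+GV libraries in every class of every line, and so do the PUT+GV libraries in Endo and VK2 cells.

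Histone mRNA was also higher with putrescine alone in every line. The sum over all members reached 867 ± 11.5 CPM in Ecto PUT+noGV cells, 366 ± 11.6 in Endo cells and 354 ± 19.9 in VK2 cells, a ratio to NT+noGV of 1.79, 1.87 and 2.86. In Ecto cells 28 members were higher and 0 lower, where 23.9% and 22.9% of all genes were. In Endo cells 29 were higher and 0 lower (15.6% and 16.3% of all genes), and in VK2 cells 32 and 1 (22% and 23%). The VK2 members tested include H3C14, which needed the PUT+noGV libraries to pass the low-count filter. The same 21 members rose in all 3 lines, out of 38 that rose in any, among them H1-2 to H1-5, H2BC5, H2BC12, H2AC18, H3C10 and H4C8. How many of all genes rose in all 3 lines was not counted.

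H1-2 went from 23.4, 22.4 and 23.9 CPM in VK2 NT+noGV to 79.1, 73.4 and 82.6 CPM in PUT+noGV cells (1.77 ± 0.08), and from 30.6, 28.6 and 30.2 to 64, 57.4 and 60 CPM in Endo cells (1.02 ± 0.05). H2BC12 went from 40.2, 40.1 and 43.7 to 125, 109.8 and 113 CPM in VK2 cells (1.5 ± 0.06) and from 133, 133 and 141 to 236, 235 and 227 CPM in Ecto cells (0.8 ± 0.07). All treated libraries of both genes stood above all controls in these lines. H1-5 had the largest called rise of Ecto cells with PUT alone, from 0.902, 0.831 and 0.832 to 3.14, 2.92 and 2.91 CPM (1.82 ± 0.21), and H3C2 followed (1.8 ± 0.28). In Endo cells H4C5 (1.59 ± 0.35) and H2BC7 (1.51 ± 0.23) led, and in VK2 cells H2BC7 (2.71 ± 0.37) and H4C15 (2.85 ± 0.59). H4C15 shares its coding sequence with H4C14 and held no count in 1 of the 3 VK2 control libraries, and the sum of the pair rose by 1.63 ± 0.09. H2AC25 and H2BC4, both with spliced transcripts, stood in Ecto PUT+noGV cells at 12.2, 10.9 and 11.3 and 8.36, 8.23 and 8.23 CPM, against 11, 12.1 and 13.2 and 8.29, 7.93 and 7.31 CPM in the control, and neither was called (adjusted p = 0.69 and 0.44).

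With bacteria the effect of putrescine differed between lines. In VK2 PUT+GV cells 42 of 51 members were higher than in NT+GV cells and 0 lower, where 29% and 31.4% of all genes were, with a median log2 fold change of 1.85. Without H2AC16 and H3C14, which needed the PUT+GV libraries to pass, 41 of 49 were higher. In Endo cells 44 of 54 were higher and 0 lower (27.9% and 28.2% of all genes), with a median of 1.3, and 43 of 51 were higher without H2AC14, H2BC10 and H3C14, which needed these libraries. In Ecto cells 20 of 59 were higher and 5 lower (31.5% and 24.9% of all genes), so that 33.9% rose, near the share of all genes, with a median of 0.3, and 20 of 58 rose without H3C4. The Ecto classes did not move together. H2B summed to 467 ± 8.46 CPM against 271 ± 8.66 in NT+GV cells, while H1 (93.5 ± 4.83 against 96 ± 5.22 CPM) and H4 (111 ± 3.03 against 109 ± 6.73 CPM) overlapped between the groups.

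H1-2 shows the difference between lines. With GV it stood at 84.9, 77.1 and 81 CPM in Ecto NT and 78.7, 84.1 and 75.8 CPM in PUT cells, at 75, 72 and 77.6 and 148, 136 and 151 CPM in Endo cells, and at 33.6, 32.4 and 33.3 and 96.4, 97.7 and 114 CPM in VK2 cells. The groups overlapped in Ecto cells (adjusted p = 0.8), and the gene rose in Endo (0.96 ± 0.04) and VK2 cells (1.63 ± 0.07). H2BC12 rose in all 3 lines, in Ecto cells from 132, 125 and 131 to 256, 253 and 242 CPM (1.01 ± 0.07). H2AC18 also rose in Ecto cells, from 41.8, 43.8 and 41.7 to 92.8, 98.3 and 85.8 CPM (1.17 ± 0.09), and H2BC17 had the largest called rise there (1.86 ± 0.13).

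The 5 members that fell in Ecto PUT+GV cells were H2AC6, H2AC8, H2AC11, H2BC4 and H2BC26. H2AC6, the most abundant H2A gene, fell from 62, 56.8 and 64.4 to 36.9, 35.1 and 38.8 CPM (-0.67 ± 0.08), and in Endo cells it rose from 49.5, 49.4 and 57.2 to 77.7, 70.8 and 76.3 CPM (0.53 ± 0.09). H2BC26 fell from 3.98, 3.53 and 3.58 to 2.68, 3.04 and 2.45 CPM in Ecto cells (-0.39 ± 0.15). The largest rises included those of H2BC17 in Endo cells (2.04 ± 0.15) and of H1-4 (2.76 ± 0.28) and H2BC8 (2.76 ± 0.18) in VK2 cells. H2BC8 went there from 0.735, 0.79 and 0.58 to 4.16, 5.05 and 4.85 CPM. H3C15 also ranked high in Endo cells, but its reads alternate with those of H3C14 and the fold of the single copy is not reliable. Between lines, the effect of PUT+GV was smaller in Ecto than in VK2 cells for 30 of 59 members and larger for 0 (17.7% and 17.3% of all genes). It was smaller in Ecto than in Endo cells for 28 and larger for 0 (12.1% and 12.7%), and smaller in Endo than in VK2 cells for 20 and larger for 0 (11.2% and 11.2%).

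The interaction of PUT with GV, which asks whether GV acts differently after putrescine, was negative in Ecto cells for 17 of 59 members and positive for 1 (12% and 14.4% of all genes). Linker histones H1-2 (-1.01 ± 0.11), H1-3 (-0.91 ± 0.25), H1-4 (-1.51 ± 0.17) and H1-5 (-1.92 ± 0.27) were all among them, as was H4C8 (-1.27 ± 0.13). H1-5 stood at 3.14, 2.92 and 2.91 CPM in PUT+noGV and 3.33, 2.87 and 2.99 CPM in PUT+GV Ecto cells, against 0.902, 0.831 and 0.832 CPM in NT+noGV and 3.48, 3.15 and 3.52 CPM in NT+GV cells. The PUT+noGV, NT+GV and PUT+GV libraries thus lay between 2.87 and 3.52 CPM, all above the NT+noGV libraries. In Endo cells the interaction was positive for 7 and negative for 2 members (14.9% and 19.9% of all genes), and in VK2 cells for 2 and 3 (9.82% and 17.8%).

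Histone mRNA was higher after spermine and bacteria than after bacteria alone, with larger median fold changes in VK2 and Ecto cells than in Endo cells. The 3 Ecto SPM+GV libraries held 2007, 2649 and 2322 CPM of histone mRNA against 647, 612 and 653 CPM in NT+GV cells, a ratio of 3.65, and VK2 cells 611, 691 and 672 against 156, 149.9 and 159 CPM, a ratio of 4.25. In Endo cells the sums were 629, 681 and 694 against 531, 546 and 557 CPM, a ratio of 1.23. In Ecto cells 54 of 59 members were higher than in NT+GV cells and 0 lower, where 28.5% and 27.5% of all genes were. In VK2 cells 45 of 51 were higher and 0 lower (27.9% and 30.3% of all genes), and in Endo cells 30 of 54 and 4 (21.9% and 21.1%). Without the SPM+GV or the NT+GV libraries 5 of the members tested in Ecto, 9 in VK2 cells and 4 in Endo cells would not have passed the low-count filter. Leaving these members out, 51 of 54 were higher in Ecto, 37 of 42 in VK2 cells and 28 of 50 in Endo cells. The median log2 fold change of all members tested was 2.31 in Ecto, 0.75 in Endo cells and 2.99 in VK2 cells.

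**Figure D3:**
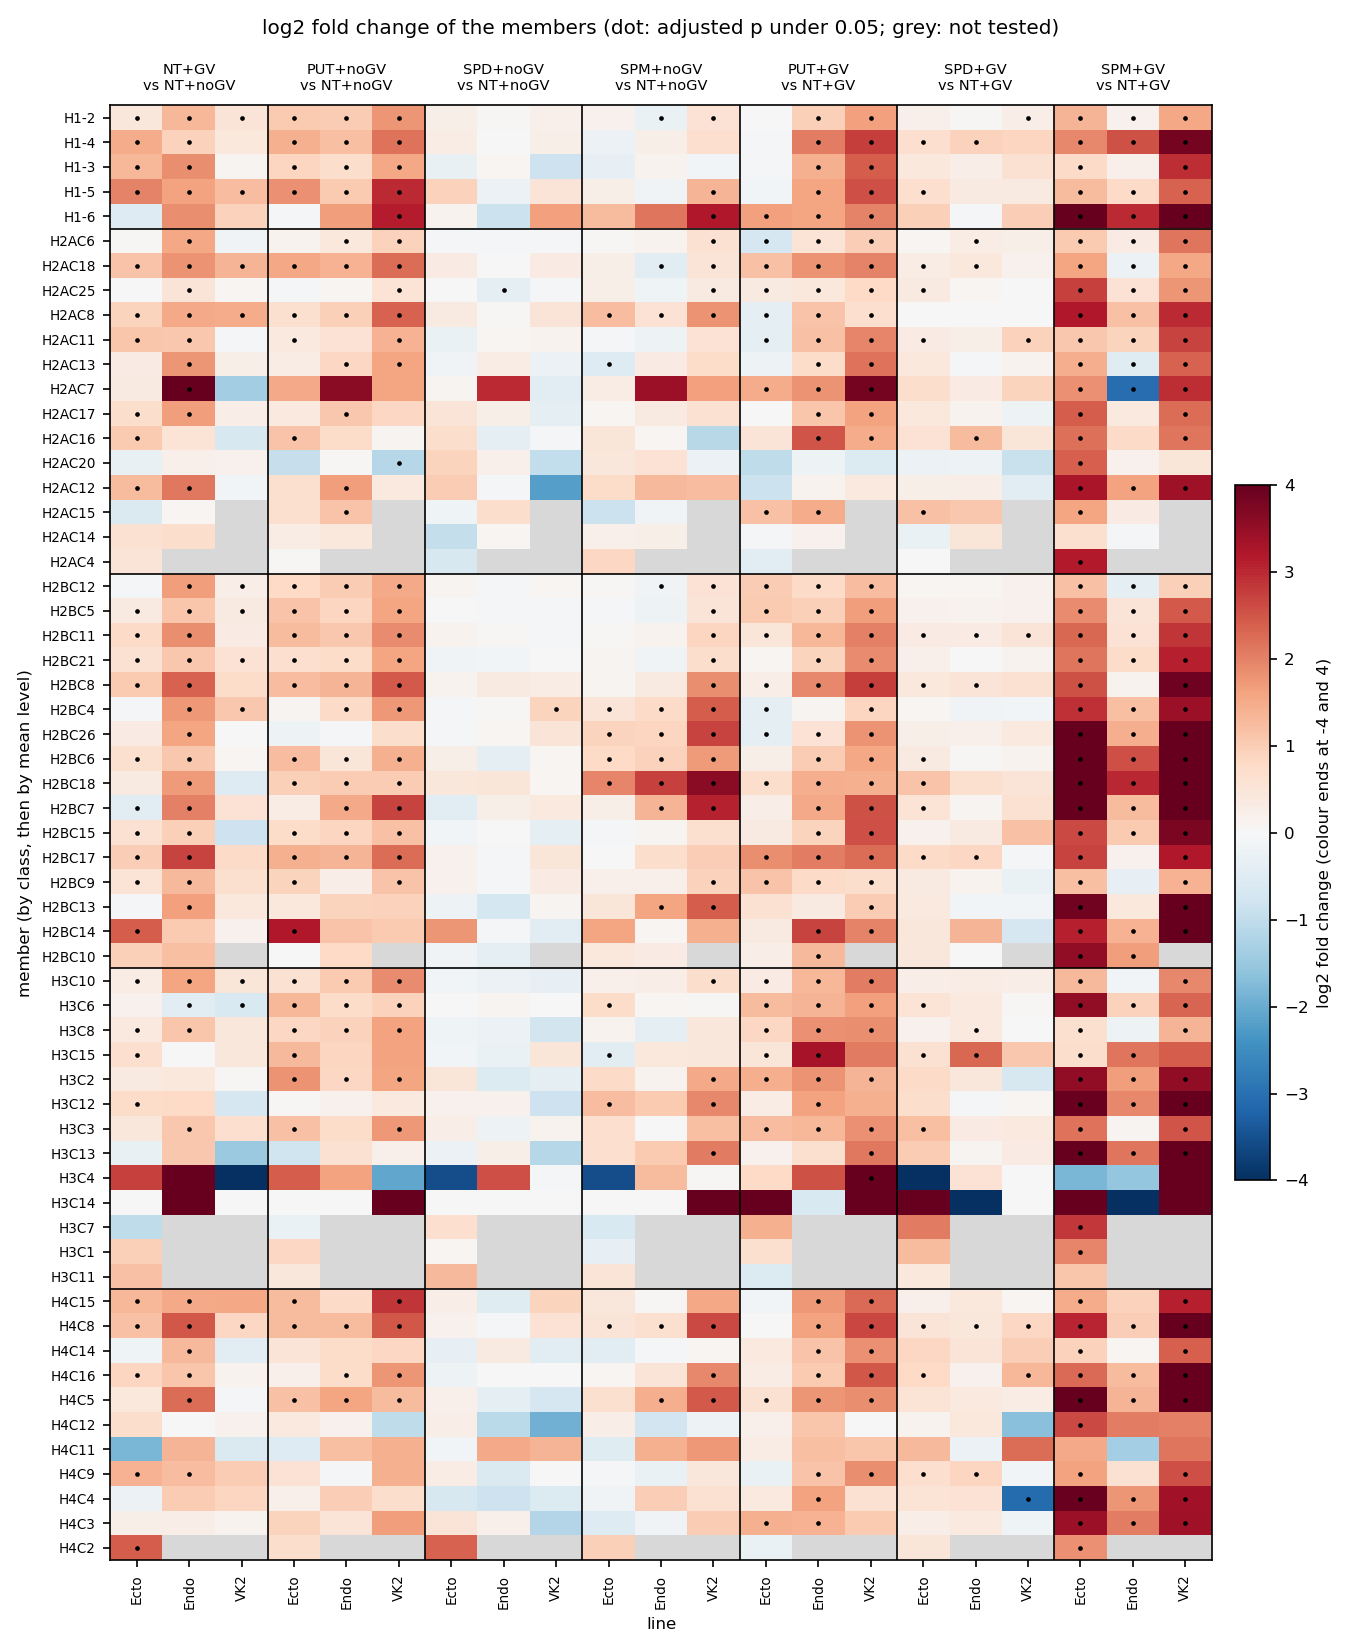
log2 fold change of every member tested in at least 1 line (rows, by class) in the comparisons of GV and of each polyamine, for the 3 lines (columns; dot: adjusted p under 0.05; grey: not tested). The SPM+GV columns hold 54 dots for higher members in Ecto and 45 in VK2 cells, and the SPD+noGV columns hold 2 dots.

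Members of every class rose. In Ecto cells 5 of 5 H1, 13 of 14 H2A, 16 of 16 H2B, 10 of 13 H3 and 10 of 11 H4 genes rose. Without the 5 members H1-6, H2AC4, H3C11, H3C14 and H4C2, which needed the SPM+GV libraries to pass, these were 4 of 4 H1, 12 of 13 H2A, 16 of 16 H2B, 10 of 11 H3 and 9 of 10 H4 genes. The ratios of the class sums there were 2.55 for H1, 3.1 for H2A, 4.11 for H2B, 4.2 for H3 and 4.04 for H4. In VK2 cells H4 had the highest ratio (9.09, from 14.1 ± 0.689 to 128 ± 9.98 CPM) and H1 the lowest (3.12, from 34.4 ± 0.676 to 107 ± 4.54 CPM). In Endo cells H4 again led (1.66), and the ratios of the other classes lay between 1.13 for H2B and 1.23 for H3. These sums carry no test.

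Among members that averaged at least 1 CPM in the line, H2BC18 had the largest called rise in each of the 3 lines. It went from 1.23, 0.746 and 1.27 CPM to 43.5, 66.6 and 47.6 CPM in Ecto cells (5.64 ± 0.19), from 0.184, 0.148 and 0.244 to 16.4, 20.9 and 18.5 CPM in VK2 cells (6.58 ± 0.24) and from 1.41, 1.07 and 1.32 to 8.64, 11 and 10.8 CPM in Endo cells (3.01 ± 0.21). The groups stood far apart in every line. The average used for this ranking includes the SPM+GV libraries, so a gene can meet the limit through them. H2BC18 averaged 3.04 CPM in VK2 cells, and most of that came from SPM+GV. H2BC26 followed in Ecto cells, from 3.98, 3.53 and 3.58 to 70.1, 101 and 90.1 CPM (4.6 ± 0.12), with rises of 4.86 ± 0.27 in VK2 cells and 1.47 ± 0.15 in Endo cells. H2BC7 rose by 5.12 ± 0.3 in VK2 cells and H2BC6 by 2.56 ± 0.12 in Endo cells, from 1.95, 2.13 and 2.17 to 11, 12.5 and 13.3 CPM. In NT+GV cells these 4 H2B genes all stood under 5 CPM.

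The values of H2BC12, H2BC5, H1-2 and H1-4, the 2 most abundant genes of H2B and of H1, follow. H2BC18 was named for its fold change, so these genes were not set against it. H2BC12 went from 132, 125 and 131 to 242, 315 and 280.1 CPM in Ecto cells (1.16 ± 0.07) and from 51.9, 46.3 and 50.2 to 88, 96 and 93 CPM in VK2 cells (0.96 ± 0.06). In Endo cells it fell from 154, 161 and 156 to 118, 118 and 120.3 CPM (-0.39 ± 0.04). H2BC5 rose from 58.4, 54 and 58.1 to 173, 236 and 199 CPM in Ecto (1.88 ± 0.1) and from 8.81, 8.34 and 8.82 to 41.7, 46.7 and 46.9 CPM in VK2 cells (2.44 ± 0.07). H1-2 rose from 84.9, 77.1 and 81 to 180.4, 211 and 209 CPM in Ecto cells (1.36 ± 0.08), and H1-4 from 7.76, 6.8 and 7.69 to 24.3, 30.6 and 26.3 CPM (1.92 ± 0.1). In Endo cells H1-2 rose by 0.18 ± 0.05, a call that was lost when 1 of the replicates was left out.

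Among H2A genes H2AC6 rose from 12.2, 11.3 and 14.8 to 51.8, 55.8 and 57.7 CPM in VK2 cells (2.15 ± 0.08), and H2AC18 from 41.8, 43.8 and 41.7 to 104, 139 and 127 CPM in Ecto cells (1.59 ± 0.09). H2AC8 went from 5.93, 6.34 and 6.12 to 45.6, 64.5 and 53.7 CPM in Ecto cells (3.2 ± 0.12). Of the H3 genes, H3C6 rose from 3.35, 3.61 and 4.08 to 36.1, 47.7 and 41.1 CPM in Ecto cells (3.55 ± 0.11) and H3C10 from 8.78, 7.23 and 8.88 to 16.2, 22.4 and 20.7 CPM (1.3 ± 0.1). H4C8 rose from 26.4, 24.6 and 27.8 to 178, 239 and 208 CPM in Ecto (3.04 ± 0.09), from 17.2, 18.1 and 18.9 to 33.5, 35.7 and 37.9 CPM in Endo (0.99 ± 0.08) and from 1.54, 1.14 and 1.53 to 35.2, 38.1 and 38.2 CPM in VK2 cells (4.76 ± 0.13). The libraries of the groups did not overlap for any gene of this paragraph. The identical copies H4C14 and H4C15, summed, went from 75.6 ± 4.62 to 183 ± 25.1 CPM in Ecto cells (1.32 ± 0.07) and from 11.1 ± 0.951 to 75.9 ± 7.94 CPM in VK2 cells (2.83 ± 0.08).

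**Figure D4:**
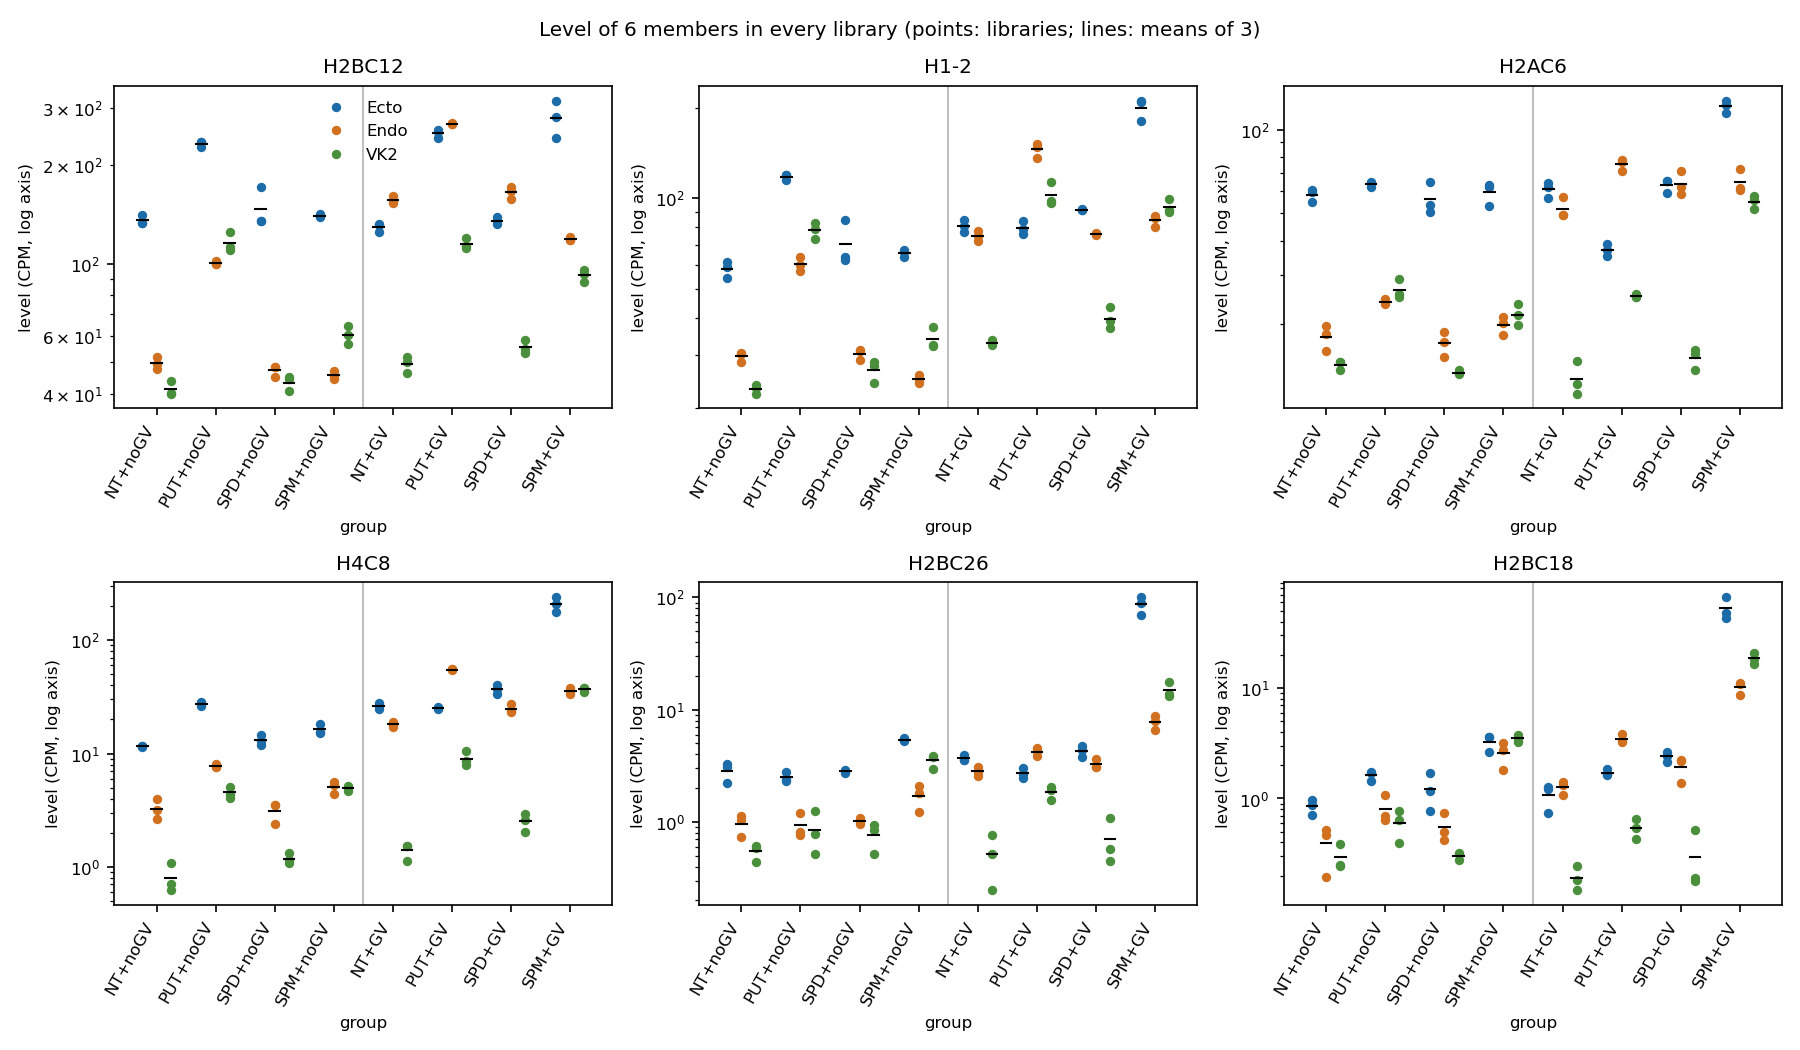
Level in CPM (log axis) of H2BC12, H1-2, H2AC6, H4C8, H2BC26 and H2BC18 in every library, by group and line (points: libraries; lines: means of 3). H2BC18 and H2BC26 stand far higher in SPM+GV than in NT+GV, and H2BC18 reaches 43.5 to 66.6 CPM there in Ecto cells, while H2BC12 is also higher with PUT+noGV than with NT+noGV.

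In Endo cells 4 members fell with SPM+GV. H2AC18 fell from 35.8, 36.9 and 35.6 to 28.4, 32.4 and 30.6 CPM (-0.24 ± 0.06), and H2AC13 (-0.49 ± 0.2) and H2BC12 also fell. H2AC7 fell from 3.16, 1.47 and 1.98 to 0, 0.812 and 0 CPM, and the zeros leave its fitted fold uncertain. The test between lines gave a larger effect of SPM+GV in Ecto than in Endo cells for 41 of 59 members and a smaller one for 1 (10.8% and 15% of all genes). It was smaller in Endo than in VK2 cells for 43 and larger for 0 (8.51% and 16.1%). Between Ecto and VK2 cells, 19 members had a smaller and 3 a larger effect in Ecto (14.5% and 17.1%).

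Without bacteria fewer members changed with spermine. In VK2 cells 26 of 51 were higher than in NT+noGV cells and 0 lower, where 17.4% and 15.6% of all genes were. In Endo cells 9 were higher and 3 lower (8.02% and 10.1% of all genes), and in Ecto cells 8 and 2 (11.3% and 12.2%). The shares of members that rose were 16.7% in Endo cells and 13.6% in Ecto cells. The summed level was 201 ± 10.6 against 124 ± 5.4 CPM in VK2 cells, and in Endo cells it was 196 ± 6.04 against 196 ± 6.77 CPM. In Ecto cells it was 525 ± 12.2 against 484 ± 16.9 CPM, a ratio of 1.09 with no overlap of the libraries.

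The members that rose with SPM alone in all 3 lines were H2AC8, H2BC4, H2BC6, H2BC18, H2BC26 and H4C8. They are 6 of the 8 that rose in Ecto, 6 of the 9 in Endo cells and 6 of the 26 in VK2 cells, and 5 of them, all but H2AC8, have an annotated spliced transcript. Among members averaging at least 1 CPM in the line, H2BC18 led in each line. It went from 0.707, 0.869 and 0.971 to 3.64, 3.58 and 2.62 CPM in Ecto (1.96 ± 0.24), from 0.522, 0.467 and 0.194 to 2.76, 3.21 and 1.8 CPM in Endo (2.72 ± 0.29) and from 0.244, 0.391 and 0.253 to 3.74, 3.27 and 3.54 CPM in VK2 cells (3.6 ± 0.24). H2BC7 rose in VK2 cells by 3.09 ± 0.36, H4C5 in Endo cells by 1.44 ± 0.36 and H2AC8 in Ecto cells by 1.25 ± 0.14. The call of H4C5 was lost when 1 of the replicates was left out. The members that fell were H2AC13 (-0.5 ± 0.17) and H3C15 (-0.44 ± 0.15), a copy that shares its reads with H3C14 (sum of the pair -0.44 ± 0.15), in Ecto cells, and H1-2 (-0.25 ± 0.05), H2AC18 (-0.41 ± 0.08) and H2BC12 (-0.13 ± 0.04) in Endo cells. 

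The interaction of SPM with GV was positive in Ecto cells for 48 of 59 members and negative for 0 (19% and 17.3% of all genes). In VK2 cells it was positive for 34 of 51 and negative for 0 (17% and 21.9%), and in Endo cells for 13 of 54 and 2 (14.1% and 10.2%). Without the members that needed 1 of the groups compared to pass the filter, it was positive for 47 of 54 in Ecto, 30 of 42 in VK2 and 13 of 50 in Endo cells. The 12 members with a positive interaction in all 3 lines were H1-2, H1-4, H2AC8, H2AC11, H2AC25, H2BC5, H2BC6, H2BC11, H2BC15, H2BC21, H3C2 and H3C6. For H2BC18 it was 3.67 ± 0.36 in Ecto and 2.98 ± 0.45 in VK2 cells. In Endo cells that gene had 0.29 ± 0.41 (adjusted p = 0.67).

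Spermidine, which lacks an aminopropyl group that spermine has, was given at the same dose and time. In SPD+GV cells 18 of 59 members were higher than in NT+GV cells and 0 lower in Ecto (6.53% and 6.6% of all genes), 11 of 54 and 0 in Endo (5.22% and 8.71%), and 5 of 51 and 1 in VK2 cells (4.84% and 7.87%). The changes were small, with median log2 fold changes of 0.43, 0.32 and 0.17. H4C8 and H2BC11 rose in all 3 lines. H4C8 went from 26.4, 24.6 and 27.8 to 37, 33.6 and 40.1 CPM in Ecto (0.5 ± 0.09), and rose by 0.46 ± 0.08 in Endo cells and 0.82 ± 0.18 in VK2 cells. H2BC18 rose in Ecto cells from 1.23, 0.746 and 1.27 to 2.15, 2.64 and 2.42 CPM (1.15 ± 0.24). Without bacteria 0 members were higher and 0 lower in Ecto (0.139% and 0.164% of all genes), 0 and 1 in Endo (0.101% and 0.08%), and 1 and 0 in VK2 cells (0.238% and 0.222%). In Ecto cells 12 members had an unadjusted p under 0.05 in this edgeR test and 1 was called by DESeq2, and without library 3 of Ecto SPD+noGV the edgeR count was again 0. The 2 called were H2AC25 in Endo (-0.35 ± 0.07) and H2BC4 in VK2 cells (0.9 ± 0.2). The interaction of SPD with GV was positive for 4 members in Ecto (1.54% of all genes), 2 in Endo (1.14%) and 0 in VK2 cells (0.108%), and negative for 0 in each (1.59%, 2.31% and 0.244%). In VK2 cells 9 members had an unadjusted p under 0.05 for this interaction in the edgeR test, and DESeq2 called 0. For this count and the 12 in Ecto cells, the share of all genes at the same limit was not computed. The Ecto count of 4 was 6 without library 3 of SPD+noGV. With 2 libraries per group the number called with SPD+GV ranged from 5 to 18 in Ecto cells.

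SPM and SPD were compared with each other directly, with and without bacteria in each line, 6 comparisons in all. With GV, SPM gave higher levels than SPD for 47 of 59 members in Ecto cells and lower for 0 (27.6% and 26.2% of all genes), for 46 of 51 and 0 in VK2 cells (25.1% and 27.5%), and for 26 of 54 and 8 in Endo cells (23.4% and 21.2%). Without the members that needed the SPM+GV libraries to pass, 44 of 54 were higher after SPM in Ecto, 38 of 42 in VK2 and 24 of 51 in Endo cells. H2BC18 was higher after SPM by 4.49 ± 0.17 in Ecto, 2.39 ± 0.2 in Endo cells and 6.05 ± 0.22 in VK2 cells. The 8 members lower after SPM in Endo cells were H2AC7, H2AC18, H2BC8, H2BC9, H2BC12, H2BC17, H3C8 and H3C10. H2BC12 stood there at 157, 167 and 171 CPM after SPD and 118, 118 and 120.3 CPM after SPM (-0.47 ± 0.04). Without GV, SPM was above SPD for 11 members and below for 2 in Ecto (10.4% and 10% of all genes), for 12 and 2 in Endo (5.73% and 6.92%) and for 26 and 0 in VK2 cells (15.2% and 13.1%). For H2BC12 without GV the difference of SPM minus SPD was -0.04 ± 0.07 in Ecto (adjusted p = 0.74) and -0.06 ± 0.04 in Endo cells (adjusted p = 0.41). Without library 3 of SPD+noGV, 19 members were higher after SPM than after SPD in Ecto cells and 0 lower. Putrescine was given at a higher dose, so its values stand beside those of SPM and SPD without a comparison.

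Members with an annotated spliced transcript were called higher at a larger share than the others in 14 of 15 comparisons of a line, with and without spermine, while their median log2 fold change was larger in 6. With SPM alone, 7 of the 15 tested members with a spliced transcript were higher in Ecto cells against 1 of 44 without, 5 of 15 against 4 of 39 in Endo, and 11 of 15 against 15 of 36 in VK2 cells. With SPM+GV, 13 of 15 against 17 of 39 were higher in Endo cells, 15 of 15 against 39 of 44 in Ecto cells and 15 of 15 against 30 of 36 in VK2 cells. With GV alone 13 of 15 against 23 of 39 were higher in Endo, 8 of 15 against 20 of 44 in Ecto cells and 3 of 15 against 7 of 36 in VK2 cells. With PUT alone they were 12 of 15 against 20 of 36 in VK2, 10 of 15 against 19 of 39 in Endo and 8 of 15 against 20 of 44 in Ecto cells. With PUT+GV they were 14 of 15 against 28 of 36 in VK2, 14 of 15 against 30 of 39 in Endo and 5 of 15 against 15 of 44 in Ecto cells, where the share was not larger. These are counts with no test, and the sets were not matched for level, while members with few counts are harder to call. The VK2 sets also include 9 members that needed the SPM+GV libraries to pass the low-count filter. In Ecto cells the tested members with a spliced transcript averaged 1.68 (H3C12) to 82.6 CPM (H2BC5). The others averaged 0.0993 (H2AC4) to 181 CPM (H2BC12). The counts per gene do not tell which transcript the reads came from.

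The promoters were searched for short motifs known from histone genes. Of 64 members with an entry among the RefSeq promoters (250 bases before to 50 after the start, GRCh38.p14), the octamer ATTTGCAT was found on either strand in 14 of 18 H2B (77.8%) and 11 of 16 H2A promoters (68.8%), against 623 of 35116 promoters of all genes (1.8%). It was in 1 of 11 H3, 0 of 6 H1 and 0 of 13 H4 promoters. The CCAAT box was in all H1, H2A, H2B and H3 promoters and in 3 of 13 H4 promoters (23.1%), against 34.6% of all. The octamer is the site of the factor OCT1 and the CCAAT box that of NF-Y, and a match of letters says nothing on binding. The promoters of H2BC18 and H4C8, which rose with SPM in all 3 lines, are printed, 5′ to 3′ on the strand of the gene, with the octamer and the CCAAT box in capitals where they occur. H2BC18 (chr1:149812321-149812620, minus strand) holds both, and H4C8 (chr6:26285485-26285784, minus strand) holds neither, nor does it hold TATAAA.
H2BC18: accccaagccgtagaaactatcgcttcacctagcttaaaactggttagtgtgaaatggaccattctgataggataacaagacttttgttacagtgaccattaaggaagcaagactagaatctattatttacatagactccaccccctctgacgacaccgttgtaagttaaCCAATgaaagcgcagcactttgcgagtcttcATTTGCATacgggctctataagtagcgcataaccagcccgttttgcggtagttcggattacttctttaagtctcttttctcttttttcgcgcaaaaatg
H4C8: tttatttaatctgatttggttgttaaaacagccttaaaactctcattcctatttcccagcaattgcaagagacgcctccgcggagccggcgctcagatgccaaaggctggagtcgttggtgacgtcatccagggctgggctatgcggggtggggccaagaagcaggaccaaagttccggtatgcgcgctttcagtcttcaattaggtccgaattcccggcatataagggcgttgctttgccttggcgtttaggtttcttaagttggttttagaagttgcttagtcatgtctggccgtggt

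With SPM+GV the medians of 6 other gene lists were smaller than that of the histone genes in each line. Of all genes 28.5%, 21.9% and 27.9% were higher with SPM+GV in Ecto, Endo and VK2 cells, and 27.5%, 21.1% and 30.3% lower. With SPM+noGV 11.3%, 8.02% and 17.4% were higher and 12.2%, 10.1% and 15.6% lower. The 35 genes of the G1/S phase and of DNA replication were more often higher than lower where SPM was given, with 35 higher and 0 lower in VK2 SPM+noGV (median log2 fold change 0.6), 31 and 0 in Endo SPM+noGV (0.25), 15 and 0 in Ecto SPM+noGV (0.14), 28 and 4 in VK2 SPM+GV (0.42), 27 and 2 in Endo SPM+GV (0.28) and 19 and 7 in Ecto SPM+GV (0.16). CDC6, which loads the replicative helicase, rose with SPM+GV by 0.86 ± 0.05 in Ecto, 0.65 ± 0.04 in Endo cells and 0.96 ± 0.05 in VK2 cells. With GV alone 7 of these genes were higher and 15 lower in Ecto cells (20.9% and 23.7% of all genes). They were 15 and 12 in Endo cells (25.7% and 28.7%) and 7 and 5 in VK2 cells (13.9% and 12.5%). With PUT+noGV 20 were higher and 3 lower in Ecto cells (23.9% and 22.9% of all genes). They were 29 and 1 in Endo cells (15.6% and 16.3%) and 31 and 2 in VK2 cells (22% and 23%). In untreated cells 29 were higher in Ecto than in VK2 cells and 3 lower (31.8% and 32% of all genes). Between Ecto and Endo cells 11 were higher and 15 lower in Ecto (31.9% and 32%).

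Of the 22 genes of G2 and mitosis, 17 were higher and 0 lower with GV in Endo cells (25.7% and 28.7% of all genes). They were 1 and 17 with SPM+GV (21.9% and 21.1%), and 1 and 17 with PUT+GV (27.9% and 28.2%). UBE2C, which drives the exit from mitosis, fell with SPM+GV in Endo cells (-0.44 ± 0.03). In Ecto cells 7 were higher and 3 lower with SPM+GV (28.5% and 27.5% of all genes). The 8 inhibitors of the cell cycle included 7 that rose and 1 that fell with SPM+GV in Ecto cells (median 1.02), led by GADD45A (1.85 ± 0.08), BTG1 (1.1 ± 0.06) and CDKN1B (1.05 ± 0.07). In VK2 cells 6 rose and 0 fell (27.9% and 30.3% of all genes), and with SPM alone 0 rose and 5 fell in Ecto cells (11.3% and 12.2%).

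Genes that process histone mRNA had small changes. Of 15 genes for histone mRNA processing and histone gene transcription 5 rose and 3 fell with SPM+GV in Ecto cells (28.5% and 27.5% of all genes). In Endo cells 7 rose and 2 fell (21.9% and 21.1%), and in VK2 cells 7 and 1 (27.9% and 30.3%). NPAT, the activator of histone genes at S phase, rose by 0.4 ± 0.08, 0.44 ± 0.05 and 0.65 ± 0.06 in these lines, and SLBP by 0.55 ± 0.05 in VK2 cells. UPF1, which acts in histone mRNA decay, rose with PUT+GV by 0.64 ± 0.04 in Ecto, 0.49 ± 0.04 in Endo cells and 0.68 ± 0.04 in VK2 cells. Of 13 histone chaperones 4 rose and 4 fell with SPM+GV in Ecto, 6 and 0 in Endo cells and 7 and 2 in VK2 cells. The shares of all genes are those just given. NASP, which holds soluble histone H3 and H4, rose by 0.66 ± 0.05, 0.43 ± 0.04 and 0.86 ± 0.05.

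The 12 replication-independent histones, most of whose mRNAs are polyadenylated, had median log2 fold changes of 0.21, 0 and 0.22 with SPM+GV in Ecto, Endo and VK2 cells, with 7 higher and 3 lower, 4 and 3, and 7 and 1. Of all genes 28.5%, 21.9% and 27.9% were higher and 27.5%, 21.1% and 30.3% lower in these comparisons. H2AX, whose gene carries the stem-loop as well, rose by 0.74 ± 0.07 in Ecto, 0.37 ± 0.06 in Endo cells and 1.45 ± 0.07 in VK2 cells. With GV alone it rose by 1.08 ± 0.07 in Ecto and 0.71 ± 0.06 in Endo cells. No test compared the lists with the replication-dependent members.

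**Figure D5:**
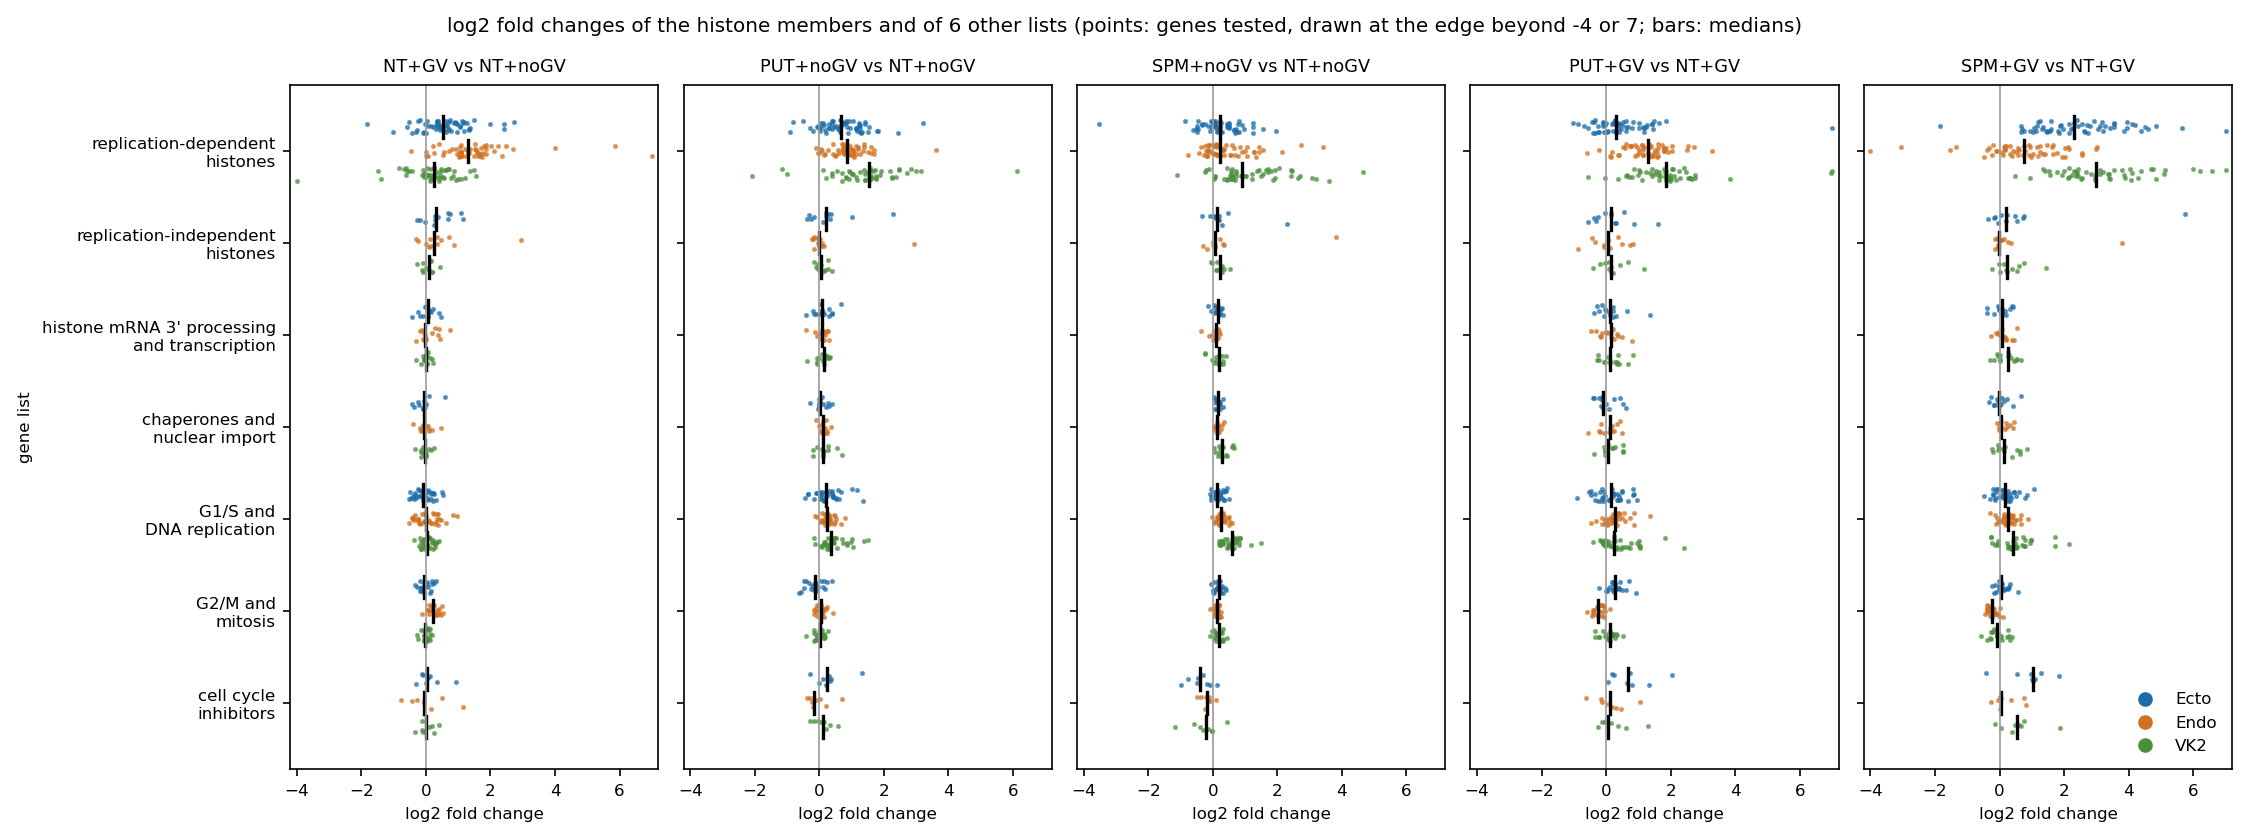
log2 fold changes of the replication-dependent members and of 6 other gene lists in 5 comparisons and 3 lines (points: genes tested, drawn at the edge of the axis beyond -4 or 7; bars: medians). With SPM+GV the median of the members is 2.31 in Ecto, 0.75 in Endo cells and 2.99 in VK2 cells, against 0.16, 0.28 and 0.42 for G1/S genes.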

How the data were processed

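RNA was measured in 72 libraries (3 lines, 8 groups of 3). Per the labels and the study's methods, ribosome-depleted total RNA was made into stranded libraries with molecular identifiers and sequenced as paired reads. The authors quantified transcripts with Salmon against release 44 of the human annotation (GRCh38.p13), summed them to genes and deposited estimated counts that are whole numbers in the table. Whether molecular identifiers were used in counting is not given in the sources used here. Salmon divides reads between similar transcripts, which bears on the near-identical histone genes.

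Groups came from the sample labels. The main test was the quasi-likelihood test of edgeR 4.0.16 (R 4.3.3) with TMM scaling, the filterByExpr filter (minimum count 10), robust fits and Benjamini-Hochberg adjustment over all genes tested, on the 24 libraries of a line or, between lines, on all 72. The authors used DESeq2, which was tried here as an alternative (1.42.0). SE is the absolute log2 fold change divided by the square root of F. Levels are CPM with TMM scaling over all 72 libraries, and class sums add the members' CPM. Every member could be named, and those with values per library were the 2 most abundant of each class and the 2 largest called rises and falls per line and main comparison among members averaging at least 1 CPM. That average takes all 24 libraries of the line, the groups compared included. H2AC25 and H2BC4 were given per library after their values were seen. Of each other list at most 4 genes per comparison were named, those with the smallest adjusted p. The members and gene lists were chosen with earlier results of these data known. Alternatives were another scaling, DESeq2, other filters on low counts, a fold limit, total counts, a replicate block and each replicate left out, and, chosen after seeing the data, summed identical copies and leaving out the library and members named in the text. Library totals ran from 20152143 to 42767996 counts. A sample sheet was not used. The fits were tested on simulated data.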

Additional observations from a re-analysis of the deposited data

Results flagged for a closer look

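Several responses differed between groups by a test of the difference itself (edgeR quasi-likelihood, adjusted p under 0.05 over all genes, both directions together). The effect of bacteria differed after a polyamine in Ecto cells for 18 members with PUT (30.5% of those tested, against 26.4% of all genes), 4 with SPD (6.78% against 3.13%) and 48 with SPM (81.4% against 36.3%). In Endo cells it differed for 9 members with PUT (16.7% against 34.8%), 2 with SPD (3.7% against 3.45%) and 15 with SPM (27.8% against 24.3%). In VK2 cells it differed for 5 with PUT (9.8% against 27.6%) and 34 with SPM (66.7% against 38.9%). The shares with PUT in Ecto, and with SPD and SPM in Endo cells, were near those of all genes, and the shares with PUT in Endo and VK2 cells were below them.

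Between lines, the effect of GV alone differed for 25 members between Ecto and Endo (42.4% against 28% of all genes), 8 between Ecto and VK2 (13.6% against 27.5%, below the share of all genes) and 23 between Endo and VK2 cells (39% against 25.8%). The effect of PUT before GV differed for 28 (47.5% against 24.8%), 30 (50.8% against 35%) and 20 members (33.9% against 22.4%) in the same order of lines. That of SPM before GV differed for 42 (71.2% against 25.8%), 22 (37.3% against 31.6%) and 43 (72.9% against 24.6%). No group had 4 or more libraries, so single libraries could not be tested as outliers.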

How the results depend on the processing

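DESeq2 size factors, the replicate block and leaving out members that needed a group compared to pass the low-count filter left every count of members called within 1.5 times its reported value. The labels give same-numbered libraries no shared culture or day, and their deviations correlated at -0.06 to 0.14, above 0.1 in 7 of 84 pairs in Endo and in 0 in the other lines, so the block was kept as an alternative. As a hint from the data that the numbers may be shared, 16 of 24 Ecto, 21 Endo and 18 VK2 libraries correlated best with their own number. Under the block H2AC7 was not called with PUT+GV in Ecto cells (log2 fold change 1.49, adjusted p = 0.0517 by edgeR, the only named call lost under the block), and 3 named values passed that had not. More named calls were lost elsewhere, 8 with DESeq2, 3 with no filter on low counts, and 17, 9 and 13 without replicate 1, 2 and 3.

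A limit of 2-fold left, in Ecto cells, 13 members with GV, 12 with PUT+GV, 3 with SPD+GV, 18 with PUT+noGV, 3 with SPM+noGV, 2 for SPM against SPD without GV, and 8 and 1 for the interactions of PUT and SPD. In Endo cells it left 2 with SPD+GV, 21 with SPM+GV, 16 with PUT+noGV, 0 with SPD+noGV, 4 with SPM+noGV, 17 and 7 for SPM against SPD with and without GV, and 1, 0 and 6 for the interactions of PUT, SPD and SPM. In VK2 cells it left 4 with GV, 2 with SPD+GV, 0 with SPD+noGV, 16 with SPM+noGV and 2 for the interaction of PUT. Between lines it left 17 for untreated Endo against VK2, 16 for the effect of GV in Ecto against Endo, 9 for PUT+GV in Endo against VK2 and 14 for SPM+GV in Ecto against VK2 cells.

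With no filter on low counts, 4 members were called for SPD+noGV, 17 for SPM+noGV and 8 for the interaction of SPD in Ecto, 4 for that interaction in Endo and 2 in VK2 cells. The VK2 interaction of PUT then had 7 calls, 4 positive and 3 negative, which turned its balance. With a mean of at least 1 CPM, which tests fewer members, VK2 cells had 25 calls each for PUT+GV, SPM+GV and SPM+GV against SPD+GV. DESeq2 called 1 member for SPD+noGV in Ecto cells and 0 in VK2 cells, and 4 for the interaction of SPD in Endo cells, and summing identical copies also gave 4 there. Scaling by total counts gave ratios of the summed level of 1.42 for GV, 1.47 for PUT+GV, 1.23 for SPD+GV and 1.94 for PUT+noGV in Ecto, 2.92 for GV, 2.36 for PUT+GV and 1.22 for SPD+GV in Endo, and 3.38 for PUT+GV and 4.66 for SPM+GV in VK2 cells. Except where a value or the alternative's construction shows it, the cause was not tested.

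Leaving out replicate 1, 2 or 3 of every group, which leaves 2 libraries per group, or library 3 of Ecto SPD+noGV alone, moved these counts of calls by over 1.5 times in at least 1 case. In Ecto cells the counts were 5 to 18 for SPD+GV vs NT+GV, 0 to 6 for the interaction of SPD and GV and 8 to 19 for SPM+noGV vs SPD+noGV, the 19 being the count without library 3 of SPD+noGV alone. In Endo cells the counts were 0 each time for SPD+noGV vs NT+noGV, 7 to 10 for SPM+noGV vs NT+noGV, 5 to 8 for the interaction of PUT and GV, 0 to 1 for the interaction of SPD and GV, 8 to 11 for SPM+noGV vs SPD+noGV and 5 to 9 for SPD+GV vs NT+GV. In VK2 cells the counts were 7 to 12 for NT+GV vs NT+noGV, 0 to 3 for SPD+GV vs NT+GV, 0 to 1 for SPD+noGV vs NT+noGV and 1 to 7 for the interaction of PUT and GV. Between lines the counts were 5 to 7 for the effect of GV, Ecto against VK2, 11 to 13 for the effect of PUT+GV, Endo against VK2, 13 to 20 for the effect of SPM+GV, Ecto against VK2 and 14 to 20 for the effect of GV, Endo against VK2. The falls of H2BC7 with GV and H2BC26 with PUT+GV in Ecto cells lost their call in at least 1 case. So did those of H3C6 with GV in Endo and VK2, and H2AC7 and H2AC13 with SPM+GV in Endo cells. With SPM alone, those of H2AC13 and H3C15 in Ecto and H1-2 and H2BC12 in Endo cells did too. Those of H2AC6 in Ecto PUT+GV, H2AC18 and H2BC12 in Endo SPM+GV and H2AC18 in Endo SPM+noGV cells kept it. Some rises lost their call as well. With GV alone these included H2BC5 in Ecto, H3C10 in Ecto and VK2 and H4C8 in VK2 cells. With spermine they included H1-2 in Endo SPM+GV and H4C5 in Endo SPM+noGV cells.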

Other observations

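The 10 members that were tested in no line were H1-1, H2AC1, H2AC19, H2AC21, H2BC1, H2BC3, H4C1, H4C6, H4C7 and H4C13. H1-1 reached at most 12 counts in any library and H2AC1 at most 5, while H2AC19 had 0 in all.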
